A study of Mus musculus with 11 samples.

Results

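The Serpina1 genes of the mouse encode alpha-1-antitrypsin and a more distant relative. All 6 genes that carry the Serpina1 name with a letter (Serpina1a, Serpina1b, Serpina1c, Serpina1d, Serpina1e and Serpina1f) were taken by symbol from the 25677 genes listed, and each had counts in at least 10 of 11 kidneys. The family was chosen by its counts in these kidneys, in which Serpina1d was nearly lost in MRL/lpr, so its values in MRL/lpr against control kidneys are given as a description, from which no test result is drawn. The difference between DNase I and no treatment within MRL/lpr was not used for the choice and was tested. The low level of Serpina1d in MRL/lpr kidneys, treated or not, was part of the choice, which limits its own test.

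Kidney RNA was sequenced, with 1 library per mouse, from female mice at 21 weeks of age. The Ctr group held 3 C57BL/6J mice, labelled C57B6, the Lpr group 4 untreated MRL/lpr mice, which carry the lpr mutation of Fas and develop lupus-like nephritis, and the DNase group 4 MRL/lpr mice injected daily into the peritoneum with DNase I, an enzyme that digests extracellular DNA. All 8 MRL/lpr mice carried the Fas mutation, and the control mice differed from them both by strain and by disease, so that strain and disease cannot be told apart in any comparison with Ctr. Libraries held 33469858 to 38460873 counts. Lpr replicate 3 stood apart, with counts that fell with gene length (log2 slope against log2 length of -0.39, against -0.04 to 0.08 in the other 10 libraries), and values that rest on it are also given without it. Of 14 leukocyte genes tested, 12 were called higher in Lpr than in Ctr, beside 4.65% of all genes. The summed level of proximal tubule genes was 19065 to 33353 CPM in Lpr (19065 to 26597 CPM without Lpr replicate 3) and 35443 to 36615 CPM in Ctr. Both differed between Lpr and Ctr, and their part in the values below was not tested. Of 20 proximal tubule genes tested, 1 was called higher and 0 lower, beside 4.65% and 1.13% of all genes. Kap alone was 10484 ± 999 CPM (SD, n = 3) of the sum in Ctr. In Lpr it was 18430 CPM in replicate 3 and 831 to 2969 CPM in the other kidneys, so this 1 gene weighs heavily in these sums. In whole kidney, fewer cells of a type and less RNA per cell cannot be told apart.

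Alpha-1-antitrypsin is a secreted serpin, made mainly by hepatocytes, that inactivates neutrophil elastase and related serine proteases. A serpin presents a reactive centre loop as bait, and the protease that cuts the loop becomes trapped in a covalent complex. Mouse strains are known to carry different numbers of Serpina1 copies, and the copies differ most in the loop, which sets the protease that is recognised.

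The 6 genes lie on the minus strand of chromosome 12 within 270.9 kb (GRCm38, chr12:103688044-103958975, GENCODE annotation), in the order Serpina1f, Serpina1b, Serpina1d, Serpina1a, Serpina1c and Serpina1e. Serpina1d is annotated at chr12:103763594-103773592 and Serpina1b at chr12:103728156-103830373. The long GENCODE span of Serpina1b covers Serpina1d, while RefSeq ends Serpina1b at 103738189. The stretch that encodes the reactive centre loop is shown for the 5 near-identical copies because all 5 differ in it. They differ elsewhere in their transcripts too. Each line holds 63 coding bases, 5′ to 3′, of the last exon (exon 5 of 5, and exon 6 of 6 in Serpina1a). Capitals mark bases that differ from the most common base among the 5 copies, and at the 2 positions where the leading bases were equally common 1 of them was left in lower case.
Serpina1a: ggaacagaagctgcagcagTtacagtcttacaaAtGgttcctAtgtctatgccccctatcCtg
Serpina1b: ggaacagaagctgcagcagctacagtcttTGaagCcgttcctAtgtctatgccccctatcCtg
Serpina1c: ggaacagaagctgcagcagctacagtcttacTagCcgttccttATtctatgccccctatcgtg
Serpina1d: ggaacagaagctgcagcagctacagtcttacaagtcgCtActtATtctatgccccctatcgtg
Serpina1e: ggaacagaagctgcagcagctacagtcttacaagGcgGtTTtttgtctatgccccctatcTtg
The stretch of Serpina1d lies at chr12:103763773-103763835 and that of Serpina1b at chr12:103728335-103728397. All 5 sequences were distinct, 14 of 63 positions varied, and Serpina1b and Serpina1d differed at 9 bases.

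Over whole transcripts, Serpina1a to Serpina1e were 92.1% to 97.9% identical in the 10 pairs, and Serpina1f was 64.0% to 65.5% identical to the other 5. The share of 100-base windows, the length of 1 read, that occurred in no other annotated gene was 100% for Serpina1f, 85.2% for Serpina1e, 79.4% for Serpina1b, 70.7% for Serpina1d, 50.1% for Serpina1a and 30.7% for Serpina1c. Serpina1b and Serpina1d shared 306 windows. The counts of Serpina1c and Serpina1a were therefore the ones most open to reads shared between copies. How the authors counted reads that match several copies is not given in the sources used here. These sequences come from the C57BL/6J reference genome. The copies carried by MRL/lpr mice were not analysed here, and a copy that is absent or altered in MRL/lpr cannot be told apart from a copy that is present but not transcribed.

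**Figure D1:**
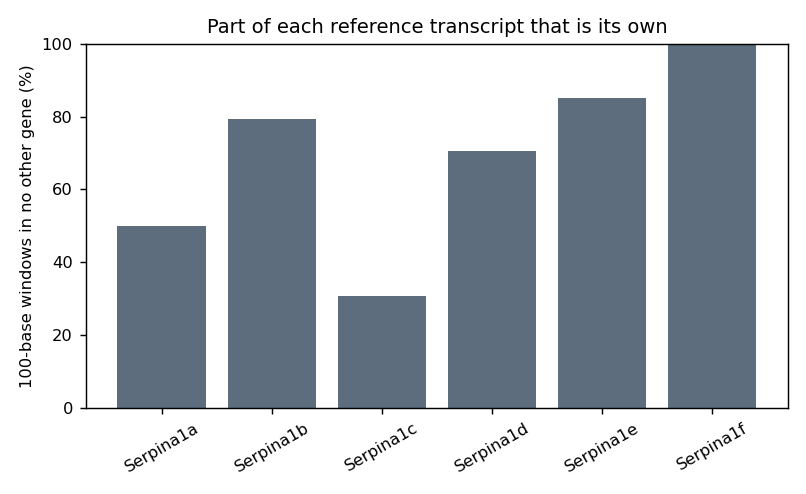
Percent of 100-base windows of each reference transcript (y axis) that occurred in no other annotated gene, for the 6 Serpina1 genes (x axis). Serpina1f stands at 100% and Serpina1c lowest at 30.7%, while Serpina1b and Serpina1d keep 79.4% and 70.7%.

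The promoters were read from RefSeq (GRCm38.p6), which held all 6. The 150 bases before the start are shown for Serpina1b, which led in MRL/lpr, and Serpina1d, which led in Ctr, because these copies had the most unlike levels. Both are written 5′ to 3′, and capitals mark aligned bases that differ between them.
Serpina1b: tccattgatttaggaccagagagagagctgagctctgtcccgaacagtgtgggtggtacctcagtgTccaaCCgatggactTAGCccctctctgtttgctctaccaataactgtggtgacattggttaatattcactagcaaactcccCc
Serpina1d: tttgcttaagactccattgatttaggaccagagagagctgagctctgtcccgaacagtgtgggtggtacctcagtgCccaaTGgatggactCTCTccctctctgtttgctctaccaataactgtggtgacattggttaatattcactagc
The Serpina1b window holds 8 such bases and the Serpina1d window 7, since the windows are shifted against each other. They lie at chr12:103738190-103738339 and chr12:103773634-103773783, on the minus strand. From 250 bases before to 50 after the start, the promoters of Serpina1b and Serpina1d were 94.1% identical over 288 aligned bases, with 17 mismatches. The promoters of Serpina1b and Serpina1e, both higher in MRL/lpr, were 98.4% identical over 248 aligned bases. Those of Serpina1c and Serpina1d, both lower, were 91.7% identical over 289 bases. Those of Serpina1d and Serpina1e, which differed in direction, were 96.2% identical over 238 bases. The other pairs of the 5 copies lay between 91.7% and 98.4%. The part of promoter sequence in the difference between MRL/lpr and control kidneys was not tested. Promoters in MRL/lpr were not analysed here.

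Serpina1d was the leading alpha-1-antitrypsin copy of control kidneys and was close to the floor in MRL/lpr kidneys. Its counts were 1954, 2858 and 800 in Ctr, 8, 4, 8 and 10 in Lpr, and 12, 7, 8 and 5 in DNase. On the CPM scale (counts divided by a TMM-adjusted library size), Serpina1d stood at 52.7, 91.1 and 24.0 in Ctr and between 0.104 and 0.335 in the 8 MRL/lpr kidneys. Every control kidney lay far above every MRL/lpr kidney, although the controls themselves varied, with a mean of 55.9 ± 33.7 CPM (SD, n = 3). The means were 0.212 ± 0.0764 CPM (SD, n = 4) in Lpr and 0.214 ± 0.0867 CPM (SD, n = 4) in DNase. The fitted log2 fold change was -8.01 (SE 0.55) in Lpr and -8.02 (SE 0.53) in DNase, both relative to the same Ctr libraries. Leaving out Lpr replicate 3 gave -8.08 for Lpr. The 62 counts left over 8 kidneys were too few to say which of them came from another copy.

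Serpina1b went the other way. Its counts were 43, 13 and 41 in Ctr, 427, 376, 1110 and 437 in Lpr, and 789, 553, 480 and 679 in DNase. All 8 MRL/lpr kidneys were above all 3 controls, and Lpr replicate 3, at 32.8 CPM, was the highest of the 11. The group means were 0.934 ± 0.451 CPM (SD, n = 3) in Ctr, 16.8 ± 10.8 CPM (SD, n = 4) in Lpr and 16.6 ± 4.20 CPM (SD, n = 4) in DNase. The log2 fold change relative to Ctr was 4.17 (SE 0.59) in Lpr and 4.13 (SE 0.35) in DNase. Without Lpr replicate 3 that of Lpr was 3.61 (SE 0.39). Per length, Serpina1d was 44.9, 217 and 19.3 times as high as Serpina1b in the control kidneys in FPKM. In MRL/lpr kidneys the ratio was turned round, and Serpina1b was 44.2 to 140 times as high as Serpina1d in FPKM.

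**Figure D2:**
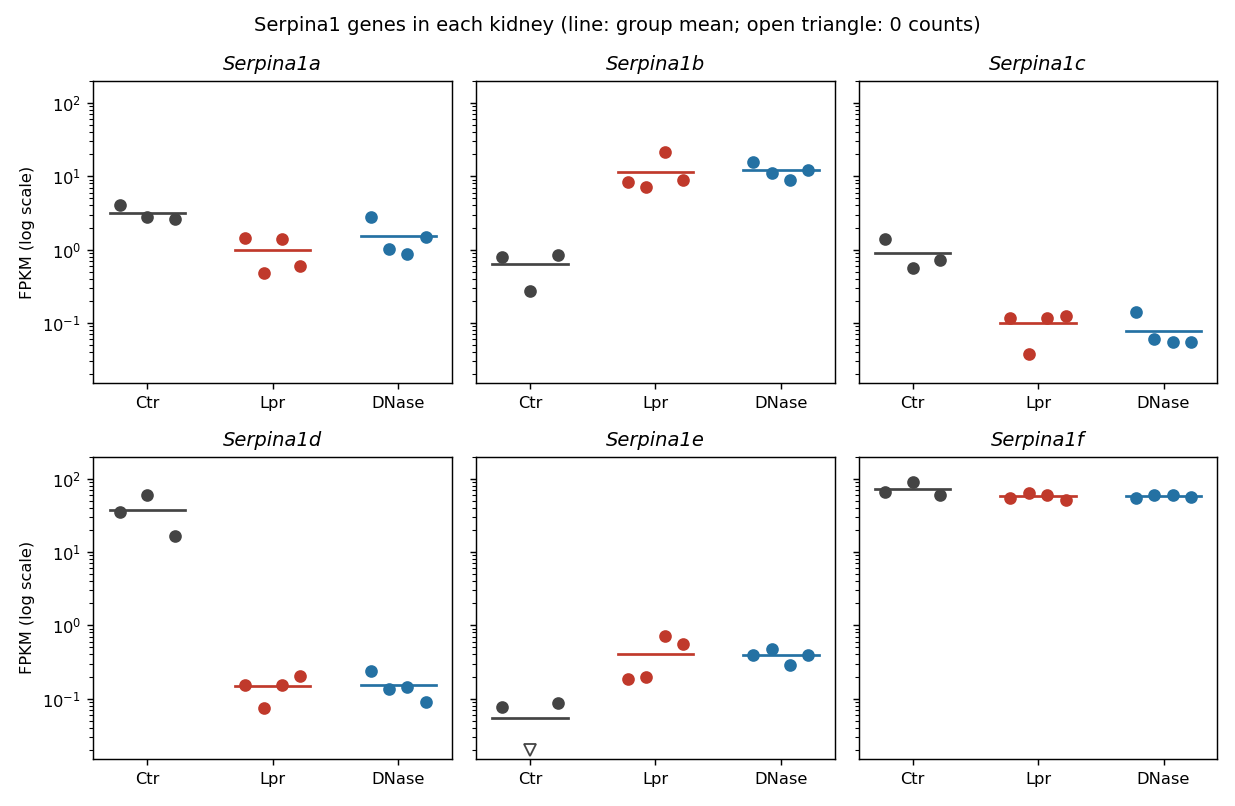
FPKM of the 6 Serpina1 genes (log scale) in each kidney of Ctr (n = 3), Lpr (n = 4) and DNase (n = 4), with the group mean as a line and an open triangle for a kidney with 0 counts. Serpina1d has a mean of 37.0 FPKM in Ctr and 0.147 in Lpr, Serpina1b has 0.638 and 11.5, and the Lpr and DNase points overlap for all 6 genes.

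Serpina1c, like Serpina1d, was lower in MRL/lpr. It stood at 2.02, 0.861 and 1.05 CPM in Ctr, at 0.170, 0.0521, 0.177 and 0.170 CPM in Lpr, and at 0.195, 0.0813, 0.0756 and 0.0772 CPM in DNase. No MRL/lpr kidney, with 2 to 7 counts each, reached the lowest control, with 27 counts. The log2 fold change was -3.18 (SE 0.52) in Lpr and -3.59 (SE 0.48) in DNase, for a gene with only 30.7% of windows of its own. Serpina1a differed less. Its values were 7.98, 5.74 and 5.09 CPM in Ctr, 2.80, 0.911, 2.90 and 1.13 CPM in Lpr, and 5.30, 1.92, 1.64 and 2.83 CPM in DNase. The Lpr kidneys were all below the controls, while DNase replicate 1 lay within the range of the controls. The log2 fold change was -1.69 (SE 0.45) in Lpr and -1.11 (SE 0.38) in DNase.

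Serpina1e was the rarest copy in controls, with 4, 0 and 4 counts. A count of 0 in Ctr replicate 2 allows up to 0.0956 CPM (3 counts), for counting error only. MRL/lpr kidneys held 9, 10, 35 and 26 counts in Lpr and 19, 23, 15 and 21 counts in DNase, so that all 8 were above all 3 controls. The means were 0.0759 ± 0.0660 CPM (SD, n = 3) in Ctr, 0.571 ± 0.382 CPM (SD, n = 4) in Lpr and 0.518 ± 0.102 CPM (SD, n = 4) in DNase. Serpina1e did not pass the filter on low counts in the Lpr and Ctr fit. In the DNase and Ctr fit it passed, with a log2 fold change of 2.68 (SE 0.62).

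Serpina1f, the most distant member, was the highest of the 6 per length in every kidney and differed least between MRL/lpr and control kidneys. It stood at 215, 306 and 193 CPM in Ctr, at 176, 193, 204 and 158 CPM in Lpr, and at 167, 181, 181 and 178 CPM in DNase. The Lpr kidneys overlapped the controls, and the DNase kidneys lay just below the lowest control. The log2 fold change was -0.37 (SE 0.20) in Lpr and -0.43 (SE 0.14) in DNase. Its spread was also the smallest in MRL/lpr, with a coefficient of variation of 7.97% over 8 kidneys, against 35.5% to 57.4% for the other 5 genes.

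Ordered by FPKM, control kidneys had Serpina1f (72.4 ± 16.2), Serpina1d (37.0 ± 21.5), Serpina1a (3.12 ± 0.771), Serpina1c (0.891 ± 0.432), Serpina1b (0.638 ± 0.317) and Serpina1e (0.0541 ± 0.0471) (mean ± SD, n = 3). The ranges of Serpina1c and Serpina1b overlapped in controls, and the other neighbours in this order did not. In the 8 MRL/lpr kidneys the order was Serpina1f (57.7 ± 3.81), Serpina1b (11.8 ± 4.86), Serpina1a (1.26 ± 0.731), Serpina1e (0.399 ± 0.179), Serpina1d (0.150 ± 0.0538) and Serpina1c (0.0883 ± 0.0402) FPKM (mean ± SD, n = 8). Here the ranges of Serpina1a and Serpina1e overlapped, as did those of Serpina1e and Serpina1d and those of Serpina1d and Serpina1c.

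As a description of the fitted values, 3 of the 5 members in the Lpr and Ctr fit lay past the limits used for a call (adjusted p under 0.05 and absolute log2 fold change above 2), 1 higher and 2 lower, where 5.78% of all 16074 genes did (4.65% higher and 1.13% lower). In the DNase and Ctr fit 4 of 6 did, 2 in each direction, where 6.01% of 16100 genes did (4.56% higher and 1.45% lower). The CPM ranges of 5 of 6 members did not overlap between Lpr and Ctr (25.6% of the genes in the fit), nor did those of 5 of 6 between DNase and Ctr (31.9%). These counts are no test of the family, since its choice used the same kidneys and both fits share the Ctr libraries. Serpina1c and Serpina1d passed the filter on low counts only through Ctr, and Serpina1e only through DNase.

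The near-identical copies share sequence, so their counts were also added up. The sum of Serpina1a to Serpina1e was 64.0, 98.1 and 31.5 CPM in Ctr, 15.5, 11.1, 37.1 and 14.7 CPM in Lpr, and 28.4, 17.8, 14.4 and 21.1 CPM in DNase. Lpr replicate 3 lay above the lowest control, and the other 7 MRL/lpr kidneys lay below all controls. The mean was 64.5 ± 33.3 CPM (SD, n = 3) in Ctr, 19.6 ± 11.8 CPM (SD, n = 4) in Lpr and 20.4 ± 5.96 CPM (SD, n = 4) in DNase. The summed level was thus 3.29-fold lower in Lpr than in Ctr, and 4.68-fold lower without Lpr replicate 3. As a log2 ratio of means the summed level differed by -1.72, against a log2 fold change of -8.01 for Serpina1d alone.

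**Figure D3:**
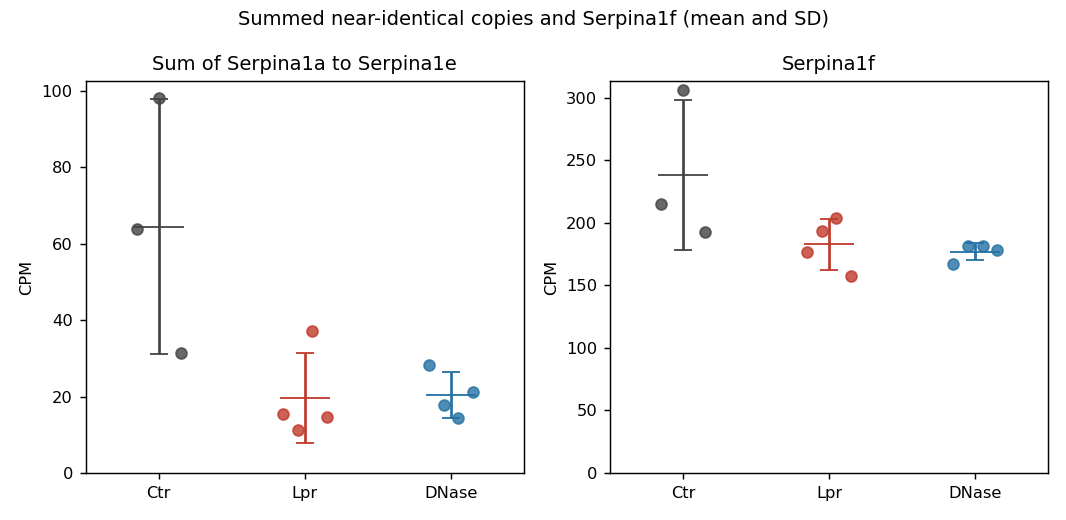
Summed CPM of Serpina1a to Serpina1e (left) and CPM of Serpina1f (right) in each kidney, with the mean and SD of Ctr (n = 3), Lpr (n = 4) and DNase (n = 4). The sum averages 64.5 CPM in Ctr, 19.6 in Lpr and 20.4 in DNase, with Lpr replicate 3 at 37.1, and the Lpr values of Serpina1f overlap those of Ctr.

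Within the sum, the leading copy was Serpina1d in all 3 Ctr kidneys and Serpina1b in all 8 MRL/lpr kidneys. Serpina1d took 76.2% to 92.9% of the counts of the 5 copies in Ctr (95% Wilson bounds from 73.5% to 93.7%) and 0.611% to 1.93% in the 8 MRL/lpr kidneys. Serpina1b took 0.422% to 3.90% in Ctr and 77.6% to 88.3% in MRL/lpr (95% Wilson bounds from 74.1% to 90.8%). Serpina1a held a similar share in both strains, 5.85% to 16.2% in Ctr and 7.71% to 18.7% in MRL/lpr, and these ranges overlapped. Serpina1c made up 0.877% to 3.33% in Ctr and 0.367% to 1.16% in MRL/lpr, and Serpina1e at most 0.381% in Ctr and 1.64% to 5.01% in MRL/lpr. Intervals cover counting error only. Lpr replicate 3, which had the largest sum of the Lpr kidneys, had the same leading copy as the other 7 MRL/lpr kidneys.

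**Figure D4:**
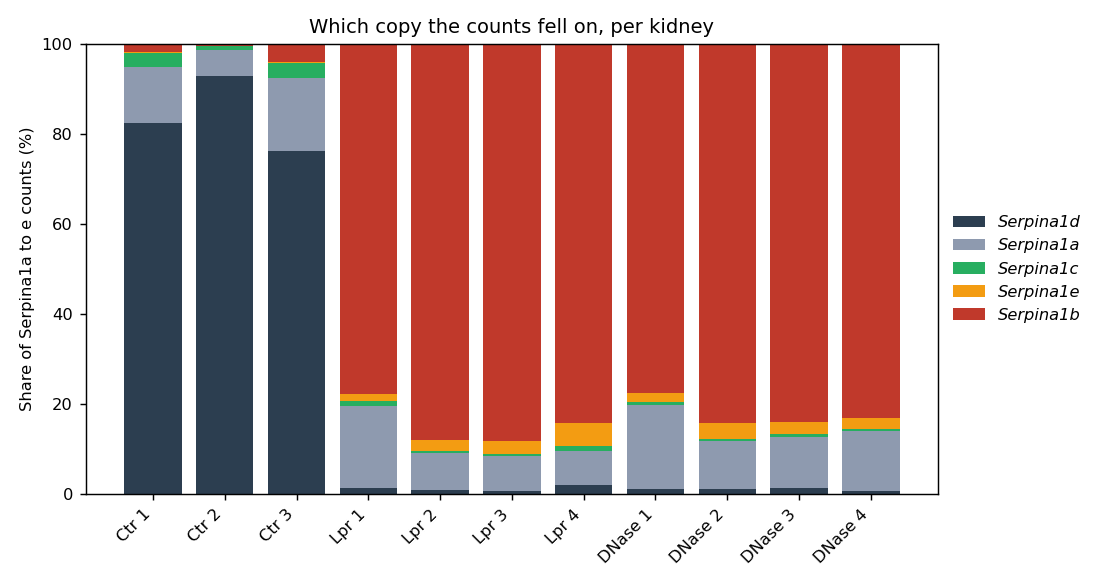
Share of the counts of Serpina1a to Serpina1e (y axis, percent) that fell on each copy, stacked to 100% for each of the 11 kidneys (x axis). Serpina1d fills 76.2% to 92.9% of the Ctr bars and Serpina1b 77.6% to 88.3% of the Lpr and DNase bars.

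DNase I treatment changed no member of the family detectably. Of 4 members that passed the filter between DNase and Lpr, 0 were called by edgeR's quasi-likelihood test, beside 0% of all 15832 genes. At an unadjusted p under 0.05 there were 886 genes, or 5.6%, and DESeq2 called 5 genes, or 0.0276%, none of them a member. The log2 fold change of Serpina1a was 0.59 (SE 0.49, adjusted p = 0.854), with a 95% interval from 0.699-fold to 3.24-fold. Serpina1b had a log2 fold change of -0.02 (SE 0.38, adjusted p = 0.993), with an interval from 0.545-fold to 1.78-fold. Without Lpr replicate 3 it was 0.54 (SE 0.20, adjusted p = 0.436). The interval of Serpina1e ran from 0.419-fold to 1.95-fold (log2 fold change -0.15, SE 0.50, adjusted p = 0.951). Serpina1f was measured most closely, with a log2 fold change of -0.05 (SE 0.13, adjusted p = 0.931) and an interval from 0.790-fold to 1.18-fold. Changes within these intervals were not detectable with 4 kidneys per group.

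Serpina1c and Serpina1d had too few counts in both MRL/lpr groups for the fit, and exact permutation tests of log2 CPM were run in its place. The difference, DNase minus Lpr, was -0.27 for Serpina1c (two-sided exact p = 0.486, 70 splits) and 0.01 for Serpina1d (two-sided exact p = 0.943, 70 splits). The smallest p that 4 against 4 kidneys allow in this exact test is 0.0286. The ranges of 0 of 6 members were separate between DNase and Lpr, beside 3.76% of all genes tested. The summed level was 1.04 times as high in DNase as in Lpr, and 1.48 times without Lpr replicate 3. Serpina1d was also close to the floor with treatment, at 5 to 12 counts per kidney. Since its low level in MRL/lpr was part of the choice of the family, its exact test says little about treatment.

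The genes that flank the family on chromosome 12 are also clade A serpins, apart from Ppp4r4, a regulatory subunit of protein phosphatase 4. On the side of Serpina1f they are Serpina16, Serpina6, Serpina10 and Ppp4r4, and on the side of Serpina1e they are Serpina11, Serpina9, Serpina12 and Serpina5. Serpina10, the protein Z-dependent inhibitor of coagulation factor X, rose in Lpr, to 39.6 ± 23.5 CPM (SD, n = 4), and was 1.53 ± 0.255 CPM (SD, n = 3) in controls. Its log2 fold change was 4.70 (SE 0.59, adjusted p = 0.00179, edgeR) and 4.28 without Lpr replicate 3. In DNase Serpina10 stood at 14.9 ± 3.48 CPM (SD, n = 4), a log2 fold change of -1.42 relative to Lpr (SE 0.44, adjusted p = 0.820, unadjusted p = 0.00922, edgeR) that failed the correction. Without Lpr replicate 3 it was -1.003, on the log2 scale.

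Serpina6, the corticosteroid-binding globulin, was 0.263 ± 0.147 CPM (SD, n = 3) in Ctr and 4.23 ± 5.50 CPM (SD, n = 4) in Lpr, where single kidneys ran from 0.911 to 12.5 CPM. It was called higher (log2 fold change 3.99, SE 1.05, adjusted p = 0.0469, edgeR), and the call was lost without any 1 of the 3 Ctr replicates (adjusted p of 0.174, 0.169 and 0.115) or without Lpr replicate 4 (adjusted p = 0.0509). Without Lpr replicate 1 the log2 fold change of Serpina6 was 2.496, and limma did not call it with a pseudocount of 1 or 0.1 on FPKM (adjusted p of 0.223 and 0.0680). Ppp4r4 had a log2 fold change of -0.44 (SE 0.22, adjusted p = 0.301, edgeR). Serpina5, Serpina9, Serpina11 and Serpina16 had at most 7 counts in any kidney, and Serpina12 at most 25. Among these neighbours, the call that was kept without any 1 library was that of Serpina10.

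**Figure D5:**
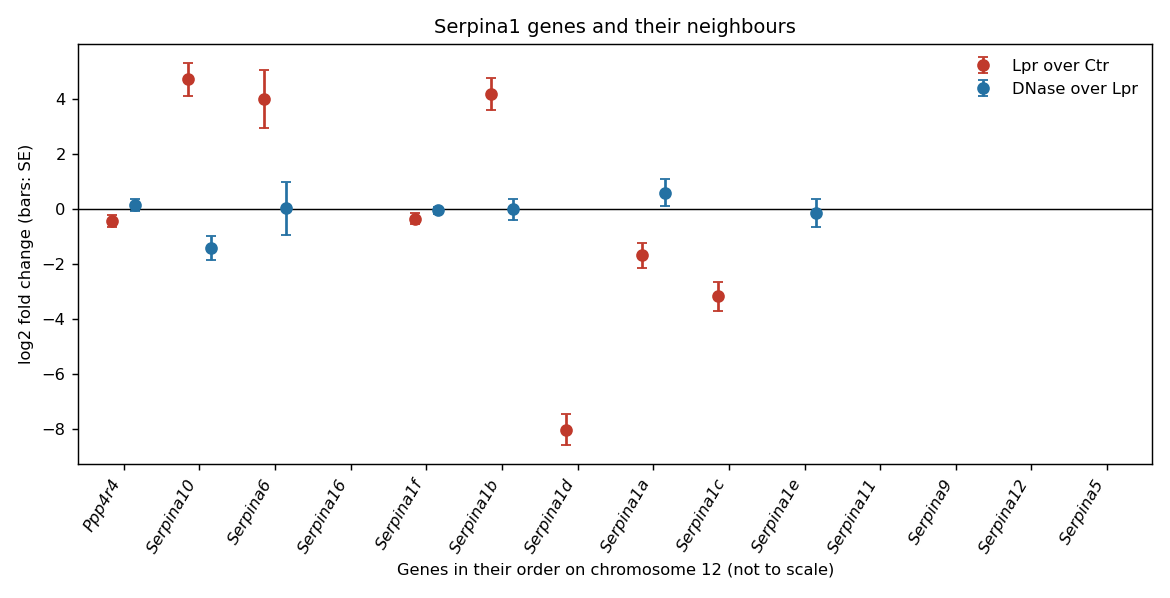
Log2 fold change with its SE (y axis) of Lpr over Ctr and of DNase over Lpr, for the Serpina1 genes and the 4 annotated genes on each side in chromosome order (x axis, not to scale). Genes that did not pass the filter have no point. Serpina1d at -8.01 and Serpina1b at 4.17 are the extremes among the Serpina1 genes in Lpr over Ctr, Serpina10 stands at 4.70, and the Serpina1 genes lie between -0.15 and 0.59 in DNase over Lpr.

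The list of clade A serpins outside the family includes the neighbours Serpina6 and Serpina10. Of 18 in the table, 9 passed the filter and were tested between Lpr and Ctr. Of these 9, 6 were called higher in Lpr than in Ctr and 0 lower, beside 5.78% of all genes called. Serpina6 and Serpina10 were among these 6. The median log2 fold change of the 9 was 4.70, which is the value of Serpina10, against 0.03 over all genes tested. Serpina3i and Serpina3b passed the filter only through Lpr, so the share called and the median lean towards genes that are high there. Serpina3i, Serpina3b, Serpina3g and Serpina3f, relatives of alpha-1-antichymotrypsin, were among those called. Serpina3c and Serpina3j of the same group had log2 fold changes of -0.72 (SE 1.13, adjusted p = 0.772, edgeR) and -1.05 (SE 0.76, adjusted p = 0.501, edgeR). Serpina3g, which is known from activated lymphocytes, rose from 2.93 ± 0.255 CPM (SD, n = 3) to 91.8 ± 45.8 CPM (SD, n = 4), a log2 fold change of 4.98 (SE 0.43, adjusted p = 0.000521, edgeR). Serpina3i, Serpina3b and Serpina3f had log2 fold changes of 5.91, 5.19 and 4.89, from Ctr means near the floor of 0.0582, 0.132 and 0.359 CPM. They had at most 3, 9 and 19 counts in any Ctr kidney. In limma on log2(FPKM + 1) their differences were 1.25, 1.67 and 2.14, so the calls of Serpina3i and Serpina3b were lost there. Serpina3n, an acute phase serpin, was at 3.60 ± 2.61 CPM (SD, n = 3) in Ctr and 11.8 ± 3.88 CPM (SD, n = 4) in Lpr and missed the threshold (log2 fold change 1.72, SE 0.53, adjusted p = 0.0832, edgeR), which it passed without Ctr replicate 1 (adjusted p = 0.0450). Between DNase and Lpr 0 of 8 tested were called, beside 0% of all genes, with a median of -0.53 against -0.02 over all genes. The summed level of this list was 6.69 to 15.5 CPM in Ctr, 99.1 to 243 CPM in Lpr and 102 to 139 CPM in DNase.

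Of 12 serine proteases listed as possible targets of alpha-1-antitrypsin, 10 were in the table and 4 could be tested between Lpr and Ctr. Of these, 0 were called, beside 5.78% of all genes. Their summed level was 259 to 296 CPM in Ctr and 224 to 314 CPM in Lpr (224 to 236 CPM without Lpr replicate 3), most of it Tmprss2 and Cela1, at 199 ± 17.5 and 74.1 ± 4.03 CPM in Ctr (SD, n = 3). The neutrophil proteases were scarce. Elane, the gene of neutrophil elastase, and Ctsg, that of cathepsin G, did not pass the filter there. Their highest counts, 39 and 29, were both in Lpr replicate 3, and the other 10 kidneys held at most 9 and 6. Prtn3, proteinase 3, was at 0.292 ± 0.218 CPM (SD, n = 3) in Ctr, 0.880 ± 0.883 CPM (SD, n = 4) in Lpr and 0.198 ± 0.0619 CPM (SD, n = 4) in DNase. Its log2 fold change was -2.14 in DNase relative to Lpr (SE 0.67, adjusted p = 0.820, edgeR) and -1.16 without Lpr replicate 3. Of 13 neutrophil markers, 9 were tested and 3 called higher in Lpr than in Ctr, beside 4.65% of all genes. The summed level of the 13 was 3.84 to 9.03 CPM in Ctr and 17.6 to 51.0 CPM in Lpr.

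Of the other inhibitors of neutrophil proteases, 2 of 15 tested were called higher in Lpr than in Ctr and 0 lower. Over all genes 4.65% were called higher and 1.13% lower. The median log2 fold change of the list was 0.78. Slpi, the secretory leukocyte protease inhibitor, rose from 1.21 ± 1.13 CPM (SD, n = 3) to 28.6 ± 18.0 CPM (SD, n = 4), a log2 fold change of 4.56 (SE 0.77, adjusted p = 0.00640, edgeR). It was 5.69 without Ctr replicate 1 and 4.09 without Lpr replicate 3. It was 19.6 ± 6.42 CPM (SD, n = 4) in DNase, which did not differ from Lpr beyond the spread (log2 fold change -0.55, SE 0.45, adjusted p = 0.854, edgeR).

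The transcription factors that act on Serpina1 promoters gave 0 calls of 9 tested in Lpr against Ctr, beside 5.78% of all genes. Their median log2 fold change was -0.30. Hnf4a, a regulator of liver and proximal tubule genes, was at 796 ± 160 CPM (SD, n = 3) in Ctr and 641 ± 222 CPM (SD, n = 4) in Lpr (log2 fold change -0.30, SE 0.31, adjusted p = 0.634, edgeR), and its log2 fold change was -0.09 without Lpr replicate 3. It did not pass the test.

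Of 11 acute phase signalling genes tested, 4 were called higher in Lpr than in Ctr and 0 lower, beside 4.65% and 1.13% of all genes. Their median log2 fold change was 1.39. Il1b, the gene of interleukin 1 beta, rose by a log2 fold change of 3.44 (SE 0.49, adjusted p = 0.00299, edgeR). Socs3, a feedback inhibitor of cytokine signalling, rose by 2.42 (SE 0.45, adjusted p = 0.0108, edgeR), a call that was lost without Ctr replicate 2 (adjusted p = 0.0574) or Ctr replicate 3 (adjusted p = 0.0568). The summed level of 22 genes of folding, export and disposal was 3353 to 3469 CPM in Ctr and 4485 to 5345 CPM in Lpr, without overlap. In DNase it was 3812 to 4192 CPM. Their median log2 fold change in Lpr against Ctr was 0.20, against 0.03 over all genes. Among these 22 genes, 1 was called higher, no larger a share than the 5.78% of all genes. This was Derl3, a component of endoplasmic reticulum disposal, at 1.04 ± 0.539 CPM (SD, n = 3) in Ctr and 4.65 ± 2.00 CPM (SD, n = 4) in Lpr (log2 fold change 2.18, adjusted p = 0.0263, edgeR). That call was lost without Ctr replicate 1 or 3 or without Lpr replicate 1, 2 or 4 (adjusted p from 0.0564 to 0.124). Of 8 uptake receptors 0 were called, beside the same 5.78%. Lrp2, the megalin of proximal tubules, had a log2 fold change of -0.37 (SE 0.28, adjusted p = 0.510, edgeR).

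Because the liver is the main source of alpha-1-antitrypsin, genes of other secreted liver proteins were read beside the family. Of 15 tested, 4 were called higher and 4 lower in Lpr than in Ctr, beside 4.65% and 1.13% of all genes. Serpina6 belongs to this list too. Their summed level overlapped between the groups, at 394 to 517 CPM in Ctr, 320 to 747 CPM in Lpr and 437 to 941 CPM in DNase. Most of this sum was Apob, with means of 335, 479 and 688 CPM in Ctr, Lpr and DNase. Alb, the gene of albumin, was at 13.6 ± 2.57 CPM (SD, n = 3) in Ctr and 4.32 ± 2.22 CPM (SD, n = 4) in Lpr. Ttr, the gene of transthyretin, fell from 41.6 ± 3.60 CPM to 0.930 ± 0.733 CPM (log2 fold change -5.47, adjusted p = 0.000637, edgeR). Others rose, with Itih1, a heavy chain of an inter-alpha-trypsin inhibitor, at 1.10 ± 0.143 CPM (SD, n = 3) in Ctr and 8.34 ± 1.73 CPM (SD, n = 4) in Lpr (log2 fold change 2.92, adjusted p = 0.000611, edgeR), and Apoh, a plasma apolipoprotein, at 0.0360 ± 0.0623 and 5.20 ± 1.36 CPM. Apoa5 was at 0 in every Ctr kidney, Mup20 in every Lpr kidney and Orm2 in every DNase kidney, but all were near the floor. Apoa5 had at most 1 count in any MRL/lpr kidney, and Mup20 at most 1 in Ctr and 2 in DNase. Orm2 had at most 4 counts in Ctr and 16 in Lpr. The part of liver-type transcripts in the Serpina1 values was not tested.

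The log2 CPM of 13156 genes was compared with that of Serpina1d over the 11 kidneys, and among the most alike were Dlec1, Tmem61, Metap1d, Cpn1, Chuk, Mettl8 and Gdpd3. Their Pearson r was 0.980 to 0.986, as a description, and all of these had every MRL/lpr kidney below every control kidney. In all, 149 genes had an r of at least 0.9. Tmem61 had the deepest step, with 4.40 ± 0.571 CPM (SD, n = 3) in Ctr and 0.0257 to 0.151 CPM in MRL/lpr. Cpn1, the catalytic subunit of the plasma carboxypeptidase N, was at 136 ± 24.3 CPM (SD, n = 3) in Ctr and 10.7 to 16.8 CPM in MRL/lpr. Chuk, the kinase subunit IKK alpha, had a much smaller step, to between 93.4 and 104 CPM from 153 ± 12.8 CPM (SD, n = 3). Within the family, the r with Serpina1d was 0.95 for Serpina1c, 0.75 for Serpina1a, 0.73 for Serpina1f, -0.85 for Serpina1e and -0.95 for Serpina1b.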

How the data were processed

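Kidney RNA of 11 mice was measured by RNA-seq with 100-base paired-end reads. The authors deposited raw counts per gene, for which their processing notes name fastp, HTSeq and build mm10 (the study's methods name HTSeq for placing reads on reference genes, and no separate aligner or annotation is given in the sources used here), and FPKM values made from the same counts. The number of columns not used was 0. Counts were analysed with R 4.3.3 and edgeR 4.0.16: filterByExpr, TMM and the quasi-likelihood test on the 2 groups compared, with Benjamini-Hochberg adjustment over all genes tested. Calls needed an adjusted p under 0.05 together with a log2 fold change beyond 2 in size, the limits of the study's methods. CPM used TMM-scaled library sizes and log2 CPM a prior count of 2. Members under the filter were compared by exact permutation. Intervals used the t distribution of the fit. Libraries held 33469858 to 38460873 counts, and the spread between mice exceeded counting error in every pair of a group. Nothing states that extraction or sequencing batches differed, so none was fitted.

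Transcripts, exons and the loop-coding stretch came from GENCODE on GRCm38 and promoters from RefSeq. The search used Biopython 1.88. The members and gene lists were chosen with earlier results of these data known. All 6 members were named, with the genes most like Serpina1d (up to 8, mean of at least 1 CPM, no predicted genes), the 4 annotated neighbours on each side, up to 4 called genes of each list above the same mean, and Elane, Prtn3, Ctsg, Hnf4a, Lrp2, Serpina3n, Serpina6, Serpina10 and Serpina11. Alb, Ttr, Apoa5, Apob, Apoh, Itih1, Mup20, Orm2, Kap, Tmprss2, Cela1, Serpina3c and Serpina3j fell outside this rule and were picked after their values were seen. Alternatives were the normalization, filter, threshold, DESeq2 1.42.0, limma 3.58.1 with a pseudocount of 1 or 0.1 added to FPKM (mean FPKM from 0.5 upwards), the 3 groups in 1 fit, a replicate block, and leaving out each library. The fitting was tested on simulated data. Some results that this rule names are not reported here.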

Additional observations from a re-analysis of the deposited data

Results flagged for a closer look

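Single kidneys stood apart from the other 3 of their group, by the gap to the nearest value over the range of the group, in 4 of 14 sets of 4 kidneys. Chance alone marks about 1 set in 20, and the sets share kidneys. Serpina1b was 32.8 CPM in Lpr replicate 3, against 9.79 to 12.4 CPM in the other Lpr kidneys. The summed level of Serpina1a to Serpina1e was 37.1 CPM in the same kidney, against 11.1 to 15.5 CPM, and most of that sum was Serpina1b. This kidney is the one whose counts fell with gene length, and the part of that in its Serpina1b level was not tested. Serpina1c was 0.0521 CPM in Lpr replicate 2, against 0.170 to 0.177 CPM, which is 2 counts against 6. In DNase replicate 1 Serpina1c was 0.195 CPM, against 0.0756 to 0.0813 CPM, which is 7 counts against 3.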

How the results depend on the processing

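Of 1446 recomputed values, 1399 kept their side of the threshold, moved within the spread or, for counts of calls, changed by a small ratio only. Of the results that were called, 0 were reversed. A change of sign in a result that was not called was not counted. Serpina1b in DNase against Lpr, for example, had a log2 fold change of -0.02, and 0.54 without Lpr replicate 3. On log2(FPKM + 1), limma called 5 related genes in Lpr against Ctr (13 in the report's fit) and 3 in DNase against Ctr (12), and with adjusted p alone 27 were called in DNase against Ctr. In both FPKM fits 2 members lay past the limits in DNase against Ctr and 2 in Lpr against Ctr, where 4 and 3 did in edgeR. Serpina1c and Serpina1e were left out of those FPKM fits by the minimum of mean FPKM. On log2(FPKM + 1) the difference of Serpina1d between Lpr and Ctr was -4.88 in place of -8.01, because a pseudocount shrinks low genes. With Serpina1f added, the log2 ratio of the summed level was -0.579 in Lpr and -0.616 in DNase against Ctr. Leaving out 1 kidney at a time, the members past the limits for a call stayed at 3 (Lpr against Ctr), 4 (DNase against Ctr) and 0 (DNase against Lpr). For members against Ctr such counts are a description and no test of the family. The related genes called were 9 to 13, 11 to 13 and 0. The log2 ratio of the summed level ranged from -2.23 to -1.28, from -1.99 to -1.23 and from -0.144 to 0.567 in the same order of comparisons, and the differences of log2 CPM, DNase minus Lpr, ranged from -0.543 to -0.172 for Serpina1c and from -0.224 to 0.172 for Serpina1d.

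The labels do not say that replicate numbers pair the mice. Same-numbered kidneys correlated between -0.277 and 0.158 in their deviations, which cannot show whether they were handled together. With the replicate number as a block, 3 members lay past the limits and 14 related genes were called in Lpr against Ctr. These numbers were 3 and 10 in DNase against Ctr, and 0 and 0 in DNase against Lpr. With 4 to 12 counts of Serpina1d in MRL/lpr kidneys, depth limits any statement on its remaining level there, and reads shared between copies limit Serpina1c and Serpina1a most.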
